A study of Homo sapiens with 9 samples.

Results

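The long isoform of the receptor TACI was compared with the parental line in BJAB cells, using the 3 control and the 3 TACI long libraries among the 9 of the series. BJAB cells are an established line of human B cells, labelled as a Burkitt lymphoma tumour. Controls are the cell line by itself. TACI long cells carry the long version of TACI, by stable transfection according to the sample titles and by transduction according to the design text. Both groups are labelled untreated, and RNA came from sorted cells. The sources used here name neither the vector and its promoter nor whether the cells are 1 clone or a pool, so effects of the procedure and of the isoform cannot be told apart. Of 57500 genes in the files, 15559 had enough counts to be tested.

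TACI, the product of TNFRSF13B, belongs to the TNF receptor superfamily and binds BAFF and APRIL, cytokines that sustain B cells. Through TRAF adaptor proteins and MYD88 it activates NF-kB, and in normal B cells it takes part in antibody class switching and plasma cell formation. The long isoform keeps the whole ligand-binding region, whereas splicing removes the first cysteine-rich domain from the short one. Gene-level counts do not separate them.

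Levels are in CPM, the counts of a library scaled to a common total with TMM factors, and changes are log2 fold changes of TACI long over control with an approximate standard error (SE). A gene was called when its Benjamini-Hochberg adjusted p in edgeR's quasi-likelihood test was under 0.05, and "rose" and "fell" are used of called genes only. TNFRSF13B stood at 28.8, 15.1 and 14.6 CPM in the control libraries and at 694, 698 and 747 CPM in the TACI long libraries. The groups were far apart, and control replicate 1 held more of this RNA than the other two controls. The log2 fold change was 5.19 ± 0.29 (adjusted p = 0.000117, edgeR).

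Total counts ran from 42314140 to 46660642 per library, with 24307 to 25230 genes detected, and replicates differed by more than sampling noise in every pair. The labels do not say that replicates came from separate cultures, so p-values measure the spread between these libraries, and that spread may be technical. B-cell markers summed to between 5936 and 6282 CPM in controls and between 5466 and 5657 CPM in TACI long. In bulk RNA, fewer cells of a kind and less RNA per cell cannot be told apart.

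Most tested genes differed, and most differences were small. In all, 4631 genes (29.8%) were higher and 4484 (28.8%) lower in TACI long, together 58.6% of those tested. Of the called genes, 6267 (40.3% of those tested) changed by less than 1.5-fold. At 2-fold or more, falls outnumbered rises: 876 genes (5.63%) were lower and 484 (3.11%) higher. The median over all genes was a log2 fold change of 0.01, and 63.4% of genes had groups that did not overlap. Because a call is so common here, each count below is read against 29.8% higher and 28.8% lower. Among protein-coding genes alone, 33.5% were higher and 30.5% lower, a closer measure for lists of such genes. The greatest rises and falls were picked among genes whose groups do not overlap, so for them the lack of overlap follows from the choice.

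**Figure D1:**
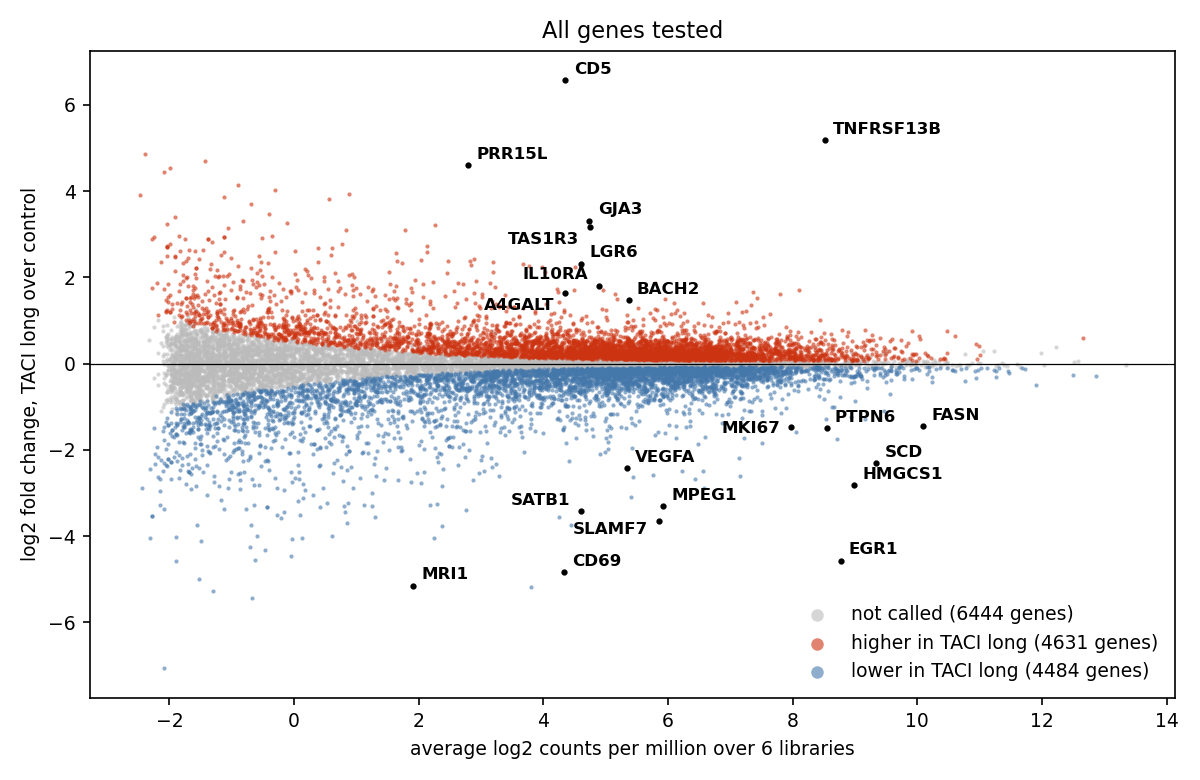
Log2 fold change (vertical axis) of each tested gene against its average log2 CPM over the 6 libraries (horizontal axis), with red for 4631 genes higher and blue for 4484 genes lower in TACI long, grey for genes not called and black for labelled genes. At 2-fold or more, the 876 falls outnumber the 484 rises; the points of greatest fall include genes of lower average level than those labelled.

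Among protein-coding genes averaging 1 or more in log2 CPM, the steepest rise belonged to CD5, a scavenger-receptor family protein that restrains antigen receptor signalling and marks T cells and a subset of B cells. It stood at 0.457, 0.434 and 0.386 CPM in the controls and 38.6, 42.2 and 41.4 CPM in TACI long. From near silence in each control it became plainly detectable in each TACI long library, with a log2 fold change of 6.57 ± 0.09 (adjusted p = 4.04e-26, edgeR). Over the group, 58 counts in controls stood against 5332 in TACI long, a ratio of 95.94 with a 95% exact interval of 74.1 to 126.5 that covers counting error only. The 13 other T and NK cell markers stayed low and summed to between 4.72 and 5.02 CPM in controls and between 4.41 and 4.89 CPM in TACI long. CD2, CD7, CD8A and KLRD1 had 0 counts in all 6 libraries, and of 4 markers tested CD3E rose 1.5-fold and NKG7 fell 1.41-fold, both under 3 CPM. The call of CD3E was lost in DESeq2 and on leaving out control replicate 3 or TACI long replicate 2. Myeloid markers summed to between 11.4 and 21.8 CPM in controls and between 15.4 and 28.8 CPM in TACI long, which overlap.

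Several further rises concerned genes known from other tissues. PRR15L, of uncertain function, stood at 0.696, 0.479 and 0.472 CPM in the controls and 13.3, 13.3 and 13.8 CPM in TACI long. The connexin gene GJA3, whose protein forms gap junctions in the eye lens, stood at 5.18, 5.27 and 4.25 CPM in the controls and 50.2, 47.3 and 48.9 CPM in TACI long. For both genes the groups were far apart, with log2 fold changes of 4.61 ± 0.12 (adjusted p = 7.58e-21) and 3.32 ± 0.06 (adjusted p = 1.2e-23; edgeR). TAS1R3, a subunit of sweet and umami taste receptors, rose 8.97-fold. LGR6, a receptor for R-spondins that strengthen Wnt signals, stood at 8.24, 7.83 and 8.35 CPM in the controls and 40.4, 39.6 and 41.6 CPM in TACI long. It rose 4.98-fold, and its libraries did not overlap between groups. The cyclic nucleotide phosphodiesterase gene PDE2A rose 4.96-fold, PADI2, which turns protein arginine into citrulline, 5.24-fold, and the lipid transporter gene ABCA12 5.95-fold. ABAT, which breaks down the transmitter GABA, rose 4.81-fold, the kinase gene WNK2 4.88-fold and the neuronal navigator gene NAV2 5.1-fold. HSPG2, which encodes the basement membrane protein perlecan, went from 26 to 357 counts over the group, a ratio of 14.3 (95% exact interval 9.62 to 22.2, counting error only).

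The deepest falls included enzymes, surface receptors and regulators. MRI1, an isomerase of the methionine salvage pathway, stood at 7.05, 7.35 and 7.02 CPM in the controls and 0.214, 0.174 and 0.211 CPM in TACI long. Its RNA was nearly lost in every TACI long library: 973 counts over the controls stood against 26, a ratio of 35.9 (95% exact interval 24.3 to 55.2). An annotated exon of it overlaps one of its neighbour C19orf53, which did not pass the test (log2 fold change -0.02). CD69, an early activation marker that holds lymphocytes in tissue, stood at 38.3, 38.5 and 38.1 CPM in the controls and 1.69, 1.13 and 1.2 CPM in TACI long. SATB1, an organiser of chromatin loops in lymphocytes, stood at 42.8, 44.8 and 44.8 CPM in the controls and 4.34, 3.85 and 4.2 CPM in TACI long. Neither gene overlapped between groups, and their log2 fold changes were -4.84 ± 0.08 (adjusted p = 1.8e-24) and -3.42 ± 0.06 (adjusted p = 2.84e-24; edgeR). MPEG1, which encodes the pore-forming protein perforin-2, stood at 109, 111 and 109 CPM in the controls and 11.7, 10.8 and 10.9 CPM in TACI long and fell 9.85-fold. RGS2, which shortens signals of G protein-coupled receptors, stood at 173, 168 and 161 CPM in the controls and 22.9, 22.7 and 22.8 CPM in TACI long. This was a fall of 7.35-fold with a spread of under 1 CPM among the TACI long libraries. The recycling endosome GTPase RAB4A fell 16.5-fold, the circadian and stress repressor gene BHLHE40 9.8-fold, and the phospholipid flippase gene ATP11A 6.52-fold.

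The promoter of MRI1 is shown because the fall of this gene was the deepest among protein-coding genes averaging 1 or more in log2 CPM, and its sequence is unusual. The 250 bases before its RefSeq start site (RefSeq, GRCh38.p14, chr19:13764272-13764521, plus strand) follow, 5′ to 3′, with capitals for a 20-base word that occurs 7 times at a spacing of 24 bases. Among 27305 promoters in the RefSeq table, 52 (0.19%) hold any 20-base word at least as often.
MRI1: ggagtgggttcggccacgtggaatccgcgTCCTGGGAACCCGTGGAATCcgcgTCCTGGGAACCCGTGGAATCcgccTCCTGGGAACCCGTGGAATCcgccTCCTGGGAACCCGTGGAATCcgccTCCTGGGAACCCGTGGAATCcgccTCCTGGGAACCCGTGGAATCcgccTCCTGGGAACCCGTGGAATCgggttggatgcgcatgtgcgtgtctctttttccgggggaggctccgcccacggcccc
The repeat lies wholly upstream of the start site, and its presence is a description of the reference sequence only.

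**Figure D2:**
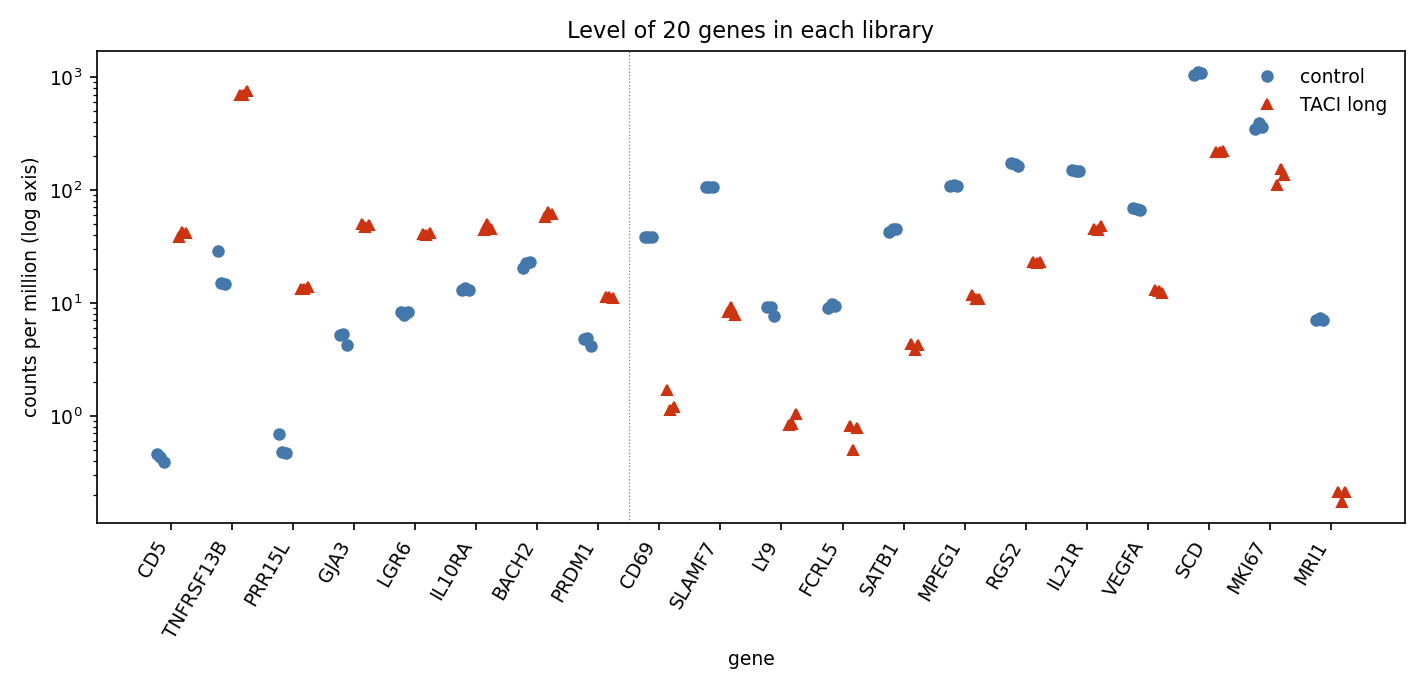
Level in CPM (vertical log axis) of 20 genes in each of the 3 control (blue circles) and 3 TACI long libraries (red triangles), with rises left and falls right of the dotted line. For each gene the 3 libraries of a group lie close together and apart from the other group; control replicate 1 of TNFRSF13B, at 28.8 CPM, is the widest departure among the rises.

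Receptors of the SLAM family, which bind one another between lymphocytes, split into falls and rises. Of 7 tested members 4 fell and 2 rose (median -0.72 on the log2 scale). SLAMF7, a target of antibody therapy in myeloma, stood at 107, 106 and 106 CPM in the controls and 8.38, 9.11 and 7.74 CPM in TACI long. LY9 (SLAMF3) stood at 9.27, 9.2 and 7.62 CPM in the controls and 0.831, 0.848 and 1.03 CPM in TACI long. Both were lower in each TACI long library than in any control, with log2 fold changes of -3.66 ± 0.05 (adjusted p = 2.02e-26) and -3.26 ± 0.13 (adjusted p = 5.3e-17; edgeR). CD48 fell 2.6-fold and SLAMF1 1.65-fold, whereas SLAMF6 rose 1.37-fold and CD84 1.46-fold.

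Among Fc receptors and the Fc receptor-like proteins of B cells, 5 of 14 tested members rose and 2 fell. FCRL5, which senses IgG on mature B cells, stood at 8.98, 9.82 and 9.42 CPM in the controls and 0.807, 0.5 and 0.774 CPM in TACI long. FCRL2, an inhibitory relative, stood at 17.1, 15.2 and 15.2 CPM in the controls and 7.5, 6.94 and 7.53 CPM in TACI long. FCRL5 fell 13.6-fold and FCRL2 2.16-fold, without overlap between groups, while their neighbours FCRL1 and FCRL3 were not called (log2 fold changes 0.07 and -0.10). The inhibitory IgG receptor gene FCGR2B rose at a low level, from 1.26 ± 0.159 to 2.47 ± 0.313 CPM (mean ± SD, n = 3 per group, as in all values of this form; adjusted p = 1.24e-05, edgeR). FCER2 (CD23), the low-affinity IgE receptor, rose from 0.425 ± 0.0946 to 0.864 ± 0.0541 CPM. With at least 1 CPM in 3 libraries required, 3 members rose.

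The B-cell receptor and its coreceptors changed in both directions: 13 of 36 tested members rose and 17 fell, with a median of -0.06. Negative regulators and surface proteins led the falls. PTPN6 (SHP-1), the phosphatase that inhibitory receptors recruit, stood at 570.0, 533 and 550.1 CPM in the controls and 195, 193 and 198 CPM in TACI long. The inhibitory sialic acid receptor CD22 stood at 826, 797 and 812 CPM in the controls and 325, 334 and 335 CPM in TACI long. MS4A1 (CD20), the target of rituximab, stood at 696, 689.8 and 674 CPM in the controls and 295, 293 and 286 CPM in TACI long. None of these genes overlapped between groups, and they fell 2.83-fold, 2.45-fold and 2.36-fold. The adaptor gene DOK3 fell 1.76-fold, the inhibitory receptor gene CD72 1.77-fold and the kinase gene LYN 1.49-fold. The signalling chain gene CD79B rose 1.69-fold, while its partner CD79A was not called (log2 fold change 0.00). Complement receptor 2 (CR2) rose 1.69-fold, the kinase genes BLK 1.54-fold and SYK 1.37-fold. CD5, described above, was the member that rose most.

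Costimulatory and activation proteins had 8 of 29 tested members higher and 12 lower. SEMA7A, a membrane-anchored semaphorin, stood at 50.01, 48.3 and 48.5 CPM in the controls and 14.8, 15.2 and 14.5 CPM in TACI long. ICOSLG, the ligand of the T-cell costimulator ICOS, stood at 6.57, 7.19 and 7.4 CPM in the controls and 2.23, 3.02 and 2.44 CPM in TACI long. Both were lower in each TACI long library than in any control, 3.3-fold and 2.74-fold. TNFRSF14 (HVEM), which engages BTLA, fell 3.33-fold. The TNF family ligand genes TNFSF9 (4-1BB ligand) and CD70 fell 2.47-fold and 2.73-fold, while the receptor for CD70, CD27, rose from 41.6 ± 1.07 to 80.5 ± 3.63 CPM. The tetraspanin gene CD82 rose 2.36-fold, and TNFRSF8 (CD30) 2.55-fold. CD40 rose 1.19-fold and CD86 1.25-fold, both small changes.

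Receptors and integrins for homing and adhesion had 10 of 29 tested members higher and 8 lower. CXCR4, the receptor for CXCL12, rose from 27.6 ± 2.08 to 54.3 ± 1.44 CPM, and the laminin-binding integrin gene ITGA3 rose from 95.2 ± 1.52 to 187 ± 2.72 CPM. S1PR2 and P2RY8, receptors that confine B cells to germinal centres, rose 1.32-fold and 1.31-fold. The integrin gene ITGB2 fell 1.56-fold. CCR7, which guides cells into lymph nodes, had 432 counts over the controls and 44 over TACI long, a ratio of 9.41 (95% exact interval 6.89 to 13.1). ITGB2 shares exon sequence with ITGB2-AS1, which fell 6.54-fold, and without strand their reads cannot be told apart.

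Among genes of TACI itself and its signalling partners, 6 of 25 tested members rose (24%) and 8 fell (32%), with TNFRSF13B and TNFRSF17 the members that changed by 2-fold or more. TNFRSF17 (BCMA), the related receptor of plasma cells, stood at 3.87, 3.77 and 4.63 CPM in the controls and 10.5, 11.5 and 10.5 CPM in TACI long. It rose 2.65-fold without overlap, whereas TNFRSF13C, the BAFF receptor, fell 1.2-fold, a call that was lost with the replicate number as a block. The adaptor gene TRAF5 fell 1.65-fold, NFKB1 1.52-fold and NFKB2 1.35-fold, and MYD88 rose 1.21-fold. TRAF2, TRAF6, MAP3K14 (NIK) and the TACI-binding protein gene CAMLG were not called, with log2 fold changes of 0.01, -0.03, -0.06 and -0.09.

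Transcription factors of the B lineage were nearly all called: 18 of 33 tested members rose and 13 fell. BACH2, which holds back plasma cell differentiation, stood at 20.5, 22.4 and 23 CPM in the controls and 57.1, 63.9 and 61.5 CPM in TACI long. PRDM1 (BLIMP1), which drives it, stood at 4.76, 4.88 and 4.14 CPM in the controls and 11.3, 11.2 and 11.1 CPM in TACI long. These opposing factors both rose without overlap, 2.77-fold (adjusted p = 2.78e-17) and 2.44-fold (adjusted p = 3.47e-13; edgeR). EBF1, a factor that specifies B cells, rose 1.71-fold, ETS1 1.71-fold and FOXO1 1.59-fold, while PAX5 was not called (0.08). ID3, an inhibitor of E proteins that is often mutated in Burkitt lymphoma, stood at 146, 134 and 141 CPM in the controls and 39.1, 37.3 and 40 CPM in TACI long. The proto-oncogene MYB stood at 48.1, 50.5 and 46.7 CPM in the controls and 16.1, 17.2 and 16.3 CPM in TACI long. ID3 fell 3.62-fold and MYB 2.92-fold, without overlap. The homeobox gene HHEX fell 3.81-fold and LMO2, a germinal centre marker, 2.98-fold. BCL6, the germinal centre master regulator, fell 1.1-fold only.

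Cytokine receptors and the JAK-STAT pathway leaned lower, with 19 of 39 tested members lower (48.7%) and 9 higher (23.1%). IL21R, the receptor for the T-helper cytokine that promotes plasma cells, stood at 149.9, 148 and 146 CPM in the controls and 45, 44.2 and 47.6 CPM in TACI long. IL10RA, a chain of the receptor for the anti-inflammatory cytokine IL-10, stood at 13, 13.6 and 13.1 CPM in the controls and 43.9, 49.8 and 45.4 CPM in TACI long. The first fell 3.25-fold and the second rose 3.5-fold, each without overlap between groups. The transcription factor genes STAT5B and STAT3 fell 1.76-fold and 1.65-fold, and STAT6 1.37-fold. The kinase gene PIM3 fell 1.74-fold and the receptor gene IL27RA 2.03-fold. IL2RB, a receptor chain for IL-2 and IL-15, went from 132 to 12 counts over the group, a ratio of 10.5 (95% exact interval 5.84 to 20.9). The deepest fall of the list was that of the kinase gene JAK3, from 155 to 6 counts. Its ratio was 24.75 (95% exact interval 11.1 to 68.5). IL4R was not called (-0.04).

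In the Toll-like receptor pathway 8 of 23 tested members rose and 5 fell. CD180, a TLR-like receptor that modulates the response of B cells to lipopolysaccharide, stood at 314, 312 and 302 CPM in the controls and 139, 138 and 142 CPM in TACI long. Its secreted partner LY86 (MD-1) rose from 21.9 ± 1.71 to 36.7 ± 1.69 CPM, so the members of this receptor pair moved apart. TLR10 rose 1.25-fold, and the endosomal transporter gene SLC15A4 fell 1.43-fold. With at least 1 CPM in 3 libraries required, 5 members of the pathway rose. Interferon-stimulated genes were 14 higher and 12 lower of 41 tested. GBP1, a GTPase induced by interferon gamma, fell 4.06-fold and the lysosomal thiol reductase gene IFI30 3-fold, while the antiviral GTPase genes MX1 and MX2 rose 1.9-fold and 2.93-fold. The levels of these 4 genes were low, under 8 CPM in all 6 libraries. In MHC class II antigen presentation 10 of 18 tested members fell and 2 rose: HLA-DOB, a modulator of peptide loading, fell 1.69-fold and HLA-DMA 1.6-fold, while HLA-DRA was not called (0.01). HLA genes are polymorphic and alike in sequence, so their counts are uncertain.

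The promoters of 3 of these receptor genes are shown because each holds TGANTCA, a loose form of the AP-1 motif bound by FOS and JUN proteins. This form allows any middle base, which is T in CD180, C in FCRL2 and G in IL10RA. FOS itself fell 11.7-fold, and a link between that fall and these genes was not tested. Each line gives the 250 bases before the RefSeq start site (RefSeq, GRCh38.p14), 5′ to 3′ on the strand of the gene, with capitals for the motif. CD180 is at chr5:67196800-67197049 (minus strand), FCRL2 at chr1:157777133-157777382 (minus strand) and IL10RA at chr11:117989695-117989944 (plus strand).
CD180: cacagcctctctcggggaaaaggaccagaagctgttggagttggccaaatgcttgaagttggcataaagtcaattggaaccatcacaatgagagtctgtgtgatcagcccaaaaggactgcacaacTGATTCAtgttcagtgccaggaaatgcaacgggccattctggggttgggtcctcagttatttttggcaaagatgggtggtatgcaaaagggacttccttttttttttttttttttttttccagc
FCRL2: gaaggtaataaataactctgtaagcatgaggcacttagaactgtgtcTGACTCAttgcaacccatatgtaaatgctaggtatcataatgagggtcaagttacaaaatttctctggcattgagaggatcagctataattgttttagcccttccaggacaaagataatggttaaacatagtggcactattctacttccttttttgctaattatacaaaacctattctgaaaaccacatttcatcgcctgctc
IL10RA: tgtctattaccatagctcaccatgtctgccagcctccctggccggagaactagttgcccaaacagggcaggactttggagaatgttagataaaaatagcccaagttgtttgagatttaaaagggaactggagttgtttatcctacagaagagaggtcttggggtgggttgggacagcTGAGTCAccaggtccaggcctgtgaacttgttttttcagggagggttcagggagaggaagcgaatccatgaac
Counted from the start site, the motif begins at position -124 in CD180, -203 in FCRL2 and -73 in IL10RA. CD180 and FCRL2 fell and IL10RA rose, so genes that moved in opposite directions share it. The 3 genes were picked after their values were seen.

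Over windows from 250 bases before to 50 after the start site, searched on both strands, TGANTCA (its own reverse complement in form) occurred in 4.62% of 10208 tested genes with a promoter in the table. It occurred in 38 of 430 genes lower by 2-fold or more (8.84%) and in 20 of 278 genes higher by 2-fold or more (7.19%), against 7.76% of all 27305 promoters in the table. The other 5 motifs searched are given in the same order, for tested genes, genes lower and genes higher by 2-fold or more. The EGR motif GCGTGGGCG occurred in 1.32, 1.16 and 1.08%, and its second form GCGGGGGCG in 7.86, 6.51 and 8.27%. The NF-kB motif, given by name only, occurred in 0.598, 1.63 and 1.08%, the latter shares resting on 7 and 3 genes. The CRE motif TGACGTCA occurred in 3.24, 3.95 and 2.52%, and the E-box CACGTG in 10%, 9.77% and 6.83%. Over all promoters in the table these 5 motifs occurred in 0.784, 5.02, 0.579, 1.98 and 7.43%. A match describes the letters in the window and not a bound site.

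The ERK feedback list was mostly lower: 14 of 27 tested members fell (51.9%) and 6 rose (22.2%). Besides feedback regulators, many of which are transcribed in response to ERK activity, it holds upstream genes such as RASGRP1. ETV5, an ETS factor downstream of ERK, stood at 49.3, 49 and 47.5 CPM in the controls and 11.6, 11.3 and 11.2 CPM in TACI long. Its relative ETV4 stood at 51.9, 51.3 and 50.1 CPM in the controls and 15.5, 13.6 and 14.3 CPM in TACI long. Both lay clearly below the controls in each TACI long library, 4.28-fold and 3.53-fold lower. The phosphatase gene DUSP5 fell 2.85-fold, the inhibitor gene SPRED1 2.22-fold, and RASGRP1, an activator of RAS, 3.84-fold, while its relative RASGRP3 rose 1.6-fold. Other classic members did not pass the test, with log2 fold changes of -0.11 for DUSP6, -0.06 for DUSP4 and 0.51 for SPRY2. The count of members higher was 3 in DESeq2, with upper-quartile factors, with at least 1 CPM in 3 libraries, in a fit over all 9 libraries and without TACI long replicate 1.

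Glycolysis and the response to low oxygen had the most one-sided counts of the lists examined, with 27 of 37 tested members lower (73.0%), 3 higher (8.11%) and a median of -0.39. VEGFA, the growth factor of blood vessels, stood at 68.5, 68.5 and 66.2 CPM in the controls and 13.1, 12.6 and 12.2 CPM in TACI long. PFKFB4, which makes an activator of glycolysis, stood at 16.1, 17 and 16.7 CPM in the controls and 2.92, 2.65 and 2.6 CPM in TACI long. Both were far lower in every TACI long library, with log2 fold changes of -2.42 ± 0.05 (adjusted p = 1.08e-23) and -2.61 ± 0.08 (adjusted p = 1.87e-19; edgeR). The glucose transporter gene SLC2A3 fell 3.69-fold, PFKFB3 2.58-fold, the oxygen-regulated factor HIF1A 1.55-fold and the kinase gene PDK1, which holds pyruvate back from the mitochondrion, 1.51-fold. The lactate dehydrogenase gene LDHA fell 1.33-fold and PGK1 1.2-fold. PKM and TPI1 were not called (0.02 and 0.02). P4HA2, a collagen hydroxylase, went the other way and stood at 2.13, 1.96 and 2.85 CPM in the controls and 12.6, 12.4 and 12.6 CPM in TACI long, a rise of 5.39-fold. EGLN1, an oxygen sensor that marks HIF1A for degradation, rose 1.42-fold.

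Fatty acid synthesis fell in 17 of 31 tested members (54.8%) and rose in 7 (22.6%). SCD, which makes oleic acid, stood at 1049, 1103 and 1090.1 CPM in the controls and 218, 217 and 219.7 CPM in TACI long. FASN, the fatty acid synthase, stood at 1564, 1601 and 1651 CPM in the controls and 552, 595 and 617 CPM in TACI long. Both were lower in all TACI long libraries, 4.96-fold (adjusted p = 2.1e-26) and 2.73-fold (adjusted p = 1.71e-18; edgeR). SCD5, the second desaturase of this kind, stood at 3.33, 4.15 and 3.86 CPM in the controls and 13.2, 13.7 and 14.8 CPM in TACI long, a rise of 3.68-fold. The transcription factor gene SREBF1 fell 2.58-fold, the elongase gene ELOVL6 1.85-fold, LPIN1 2.37-fold and the acyl-CoA synthetase gene ACSL4 2.26-fold. FADS1, a desaturase of polyunsaturated fatty acids, fell 10.5-fold, and it shares exon sequence with FADS2, which was not called (-0.04).

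In fatty acid oxidation, 16 of 32 tested members rose (50%) and 8 fell (25%). The rise was small for most of them, with a list median of 0.12. ACAA2, the thiolase of the last step in mitochondria, stood at 1.13, 1.07 and 1.24 CPM in the controls and 8.29, 7.2 and 7.39 CPM in TACI long. It rose 6.61-fold, and the dehydrogenase gene ACADSB 1.92-fold. CPT1B, a carnitine transferase, fell 3.2-fold and ECI2 1.81-fold. ACOT2, a mitochondrial thioesterase, had 438 counts in controls and 32 in TACI long, a ratio of 13.1 (95% exact interval 9.15 to 19.4).

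Methionine salvage, polyamine and folate genes fell in 20 of 37 tested members (54.1%) and rose in 10 (27.0%). Apart from MRI1, SAT1, which acetylates polyamines for export, fell 2.24-fold and CTH, which makes cysteine, 2.02-fold. The other enzymes of methionine salvage did not fall with MRI1: ADI1 rose 1.67-fold and APIP 1.15-fold, and MTAP and ENOPH1 were not called (-0.00 and -0.06).

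Sphingolipid enzymes rose in 12 of 25 tested members and fell in 8. A4GALT, which makes the Burkitt lymphoma antigen Gb3 (CD77), stood at 10.1, 9.47 and 10.3 CPM in the controls and 30.9, 31.5 and 30.6 CPM in TACI long. The groups were clearly apart, a rise of 3.11-fold (adjusted p = 9.23e-19, edgeR). GBGT1, also on this list, rose 2.97-fold. Among the ceramide synthases, CERS6 fell 9.63-fold and CERS2 rose 1.41-fold, which use acyl chains of different length.

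Lysosome and autophagy genes fell in 25 of 45 tested members (55.6%) and rose in 10 (22.2%), mostly by small amounts (median -0.13). GABARAPL1, a protein of the autophagosome membrane, fell 4.04-fold and the autophagy receptor gene SQSTM1 1.76-fold. The lysosomal sialidase gene NEU1 fell 1.68-fold, while the proton pump subunit gene ATP6V1B2 rose 1.65-fold. Antioxidant genes rose in 16 of 33 tested members (48.5%) and fell in 8 (24.2%). NQO1, a quinone reductase, rose from 2.52 ± 0.19 to 6.56 ± 0.184 CPM, TXNIP, an inhibitor of thioredoxin, 1.84-fold and catalase (CAT) 1.45-fold, while NFE2L2 (NRF2), the factor that induces NQO1, fell 1.25-fold.

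**Figure D3:**
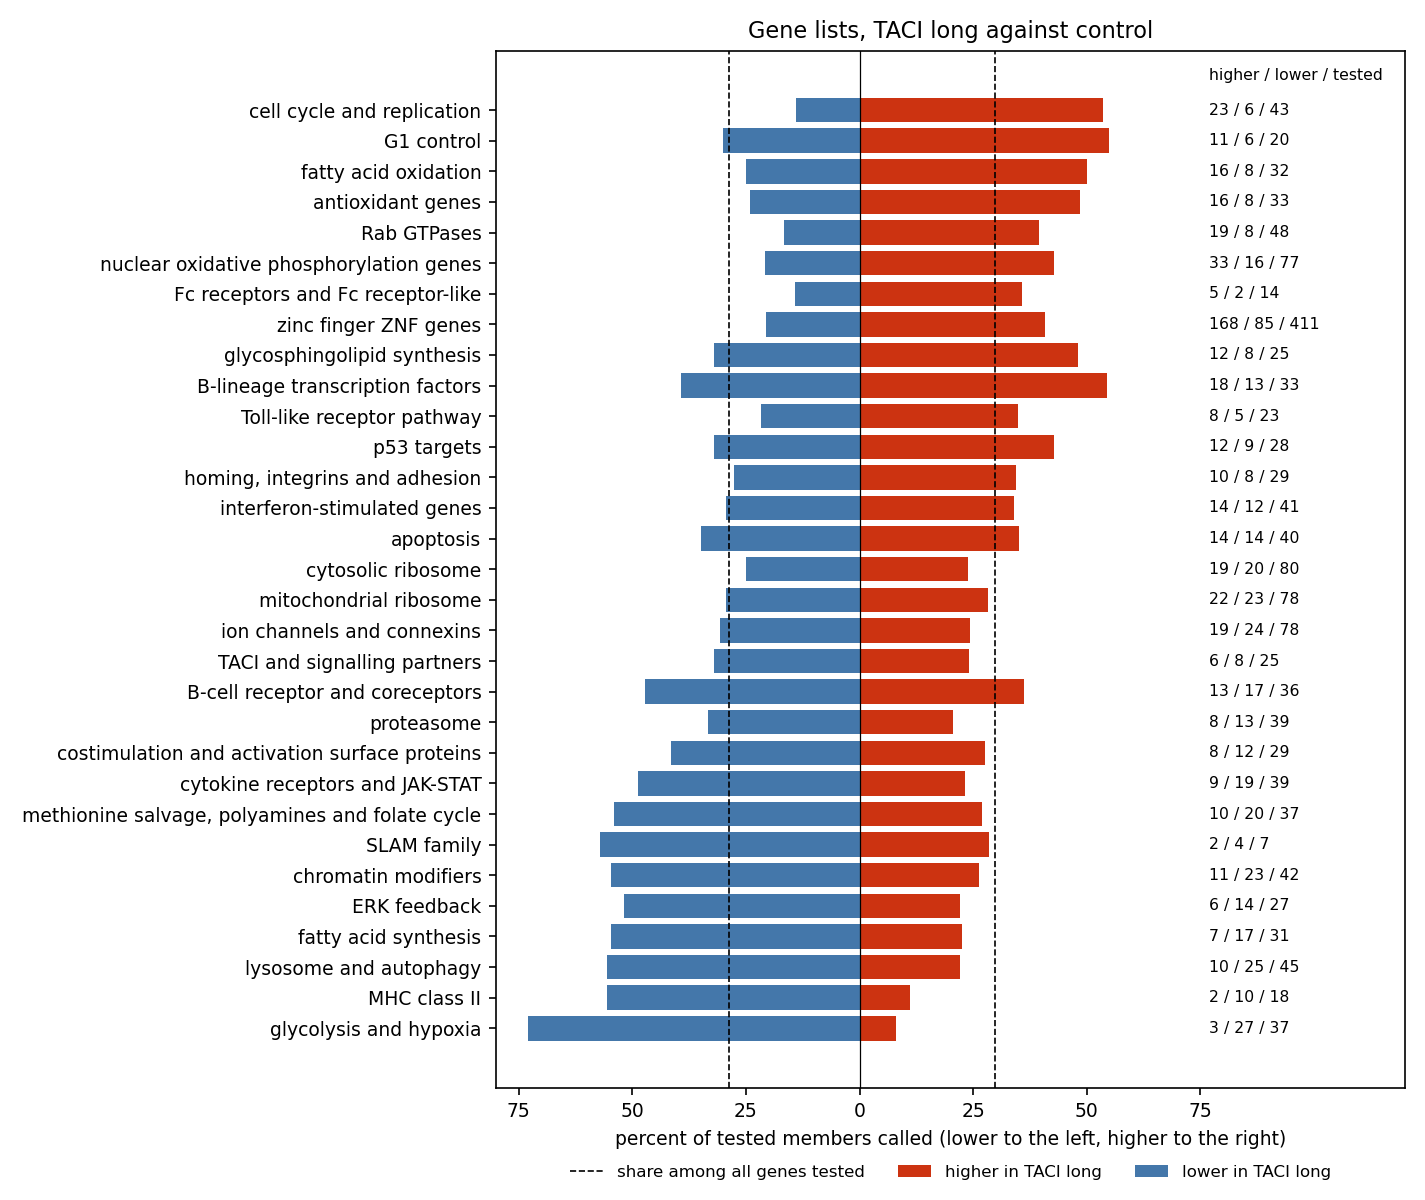
Percent of tested members of each gene list that were called higher (red, right) or lower (blue, left) in TACI long, with the counts at the right and dashed lines at the shares over all genes tested, 29.8% higher and 28.8% lower. Glycolysis and hypoxia reaches farthest to the left at 73.0%, and G1 control, B-lineage transcription factors and the cell cycle farthest to the right, at 55.0, 54.5 and 53.5%.

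Cell cycle and replication genes rose in 23 of 43 tested members (53.5%) and fell in 6 (14%), with none changed by 2-fold upwards and a median of 0.09. The mitotic regulators CDC20 and AURKA rose 1.37-fold and 1.33-fold, and RRM2, which supplies deoxynucleotides, 1.43-fold. MKI67, which encodes the proliferation marker Ki-67, went against the list and stood at 348, 392 and 361 CPM in the controls and 110.4, 154 and 134 CPM in TACI long. It fell 2.76-fold without overlap (adjusted p = 0.000945, edgeR), with more spread between replicates than most genes shown here. PCNA and MCM2 were not called (-0.04 and 0.02). In G1 control 11 of 20 tested members rose and 6 fell. CDKN2C (p18), an inhibitor of CDK4 and CDK6, stood at 118, 119 and 116 CPM in the controls and 252, 246 and 251 CPM in TACI long. CDKN1B (p27), an inhibitor of CDK2, stood at 27.1, 27.7 and 26.7 CPM in the controls and 13.2, 13.8 and 14.2 CPM in TACI long. These cell cycle inhibitors moved apart: the first rose 2.12-fold and the second fell 1.98-fold. E2F3 rose 1.84-fold and CCND3 fell 1.33-fold.

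Apoptosis regulators were balanced in the number of calls, with 14 of 40 tested members higher and 14 lower. By 2-fold or more, 1 rose and 6 fell. BCL2L11 (BIM), a pro-apoptotic BH3-only protein, stood at 35.4, 38.1 and 36 CPM in the controls and 74.1, 75.7 and 72.7 CPM in TACI long. PMAIP1 (NOXA), another protein of that kind, stood at 33.1, 33.9 and 35.3 CPM in the controls and 12.6, 12.7 and 12.6 CPM in TACI long. BIM RNA rose 2.03-fold and NOXA RNA fell 2.7-fold, both without overlap. BIK fell 2.23-fold and BBC3 (PUMA) 2.18-fold, and so did the TRAIL receptor genes TNFRSF10A (1.88-fold) and TNFRSF10B (1.83-fold). The survival genes BCL2L1, MCL1 and BIRC5 rose 1.5-fold, 1.25-fold and 1.53-fold. BCL2, also a survival gene, went the other way and fell slightly (log2 fold change -0.31). Its call did not hold in DESeq2 or in several of the fits that omit 1 library. Targets of p53 were 12 higher and 9 lower of 28 tested: RRM2B rose 1.71-fold and MDM2 1.23-fold, while CDKN1A (p21) was not called (-0.38).

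Chromatin modifiers fell in 23 of 42 tested members (54.8%) and rose in 11 (26.2%). The remodeller gene CHD2 stood at 39.3, 43.7 and 43 CPM in the controls and 11.8, 14.5 and 12.7 CPM in TACI long. The histone methyltransferase gene KMT2B stood at 81.1, 82.9 and 89.1 CPM in the controls and 37.7, 41.8 and 40.3 CPM in TACI long. Neither overlapped between groups, and they fell 3.22-fold and 2.11-fold. The demethylase gene KDM6B fell 2.4-fold, while the deacetylase gene SIRT1 rose 1.33-fold and EZH2 was not called (-0.04). Zinc finger genes with a ZNF symbol, mostly repressors of the KRAB class, rose in 168 of 411 tested members (40.9%) and fell in 85 (20.7%), with a median of 0.10. Larger changes leaned the other way: at 2-fold or more 4 rose and 10 fell. With a minimum change of 1.5-fold, 9 rose and 15 fell. A few were nearly lost: ZNF836 went from 152 to 3 counts, a ratio of 48.55 (95% exact interval 16.3 to 238), and ZNF256 from 79 to 2, a ratio of 37.85 (10.1 to 318).

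Pseudogenes are given by class. Of 226 transcribed unprocessed pseudogenes, which are gene copies with introns, 120 fell (53.1%) and 23 rose (10.2%), with a median of -0.38. Of 112 unprocessed pseudogenes with no such transcript annotation 38 fell and 18 rose (median -0.30), whereas protein-coding genes had 3730 of 12247 lower and 4103 higher (median 0.02). Processed pseudogenes, copies made from spliced RNA, were the more numerous class: of 503 tested, 49 fell (9.74%) and 35 rose (6.96%), with a median of -0.04, and of 82 transcribed ones 20 fell and 9 rose (median -0.06). In the first of these classes, HERC2P2 stood at 14, 13.4 and 12 CPM in the controls and 2.11, 2.57 and 2.06 CPM in TACI long. CROCCP2 stood at 31.1, 30.1 and 31 CPM in the controls and 11, 14.4 and 13 CPM in TACI long. Both were lower in each TACI long library, 5.81-fold and 2.39-fold, while NAPSB, the member of that class with the most counts, rose 1.99-fold. Reads of such copies can be shared with their parent genes, so single values are uncertain. With a minimum change of 1.5-fold, 52 of the 226 fell and 7 rose.

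Long non-coding RNAs are given by type as well. Of 710 lincRNAs 155 were higher and 151 lower, and of 945 antisense RNAs 137 were higher and 194 lower, with 34 higher and 81 lower by 2-fold or more. Processed transcripts had 32 of 151 members higher and 51 lower, and sense intronic RNAs 16 of 118 higher and 27 lower. NEAT1, the scaffold of nuclear paraspeckles, stood at 86.2, 94.3 and 95.1 CPM in the controls and 14.4, 16.9 and 14.8 CPM in TACI long. It fell 5.97-fold (adjusted p = 3.55e-17, edgeR), whereas MALAT1, the nuclear RNA encoded beside it, was not called (-0.28). OLMALINC fell 13.4-fold and LINC01987 rose 9.3-fold. The antisense transcript AL109615.3 fell 36.3-fold, together with C6orf223 (8.54-fold), with which it shares exon sequence, so unstranded reads can be shared.

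**Figure D4:**
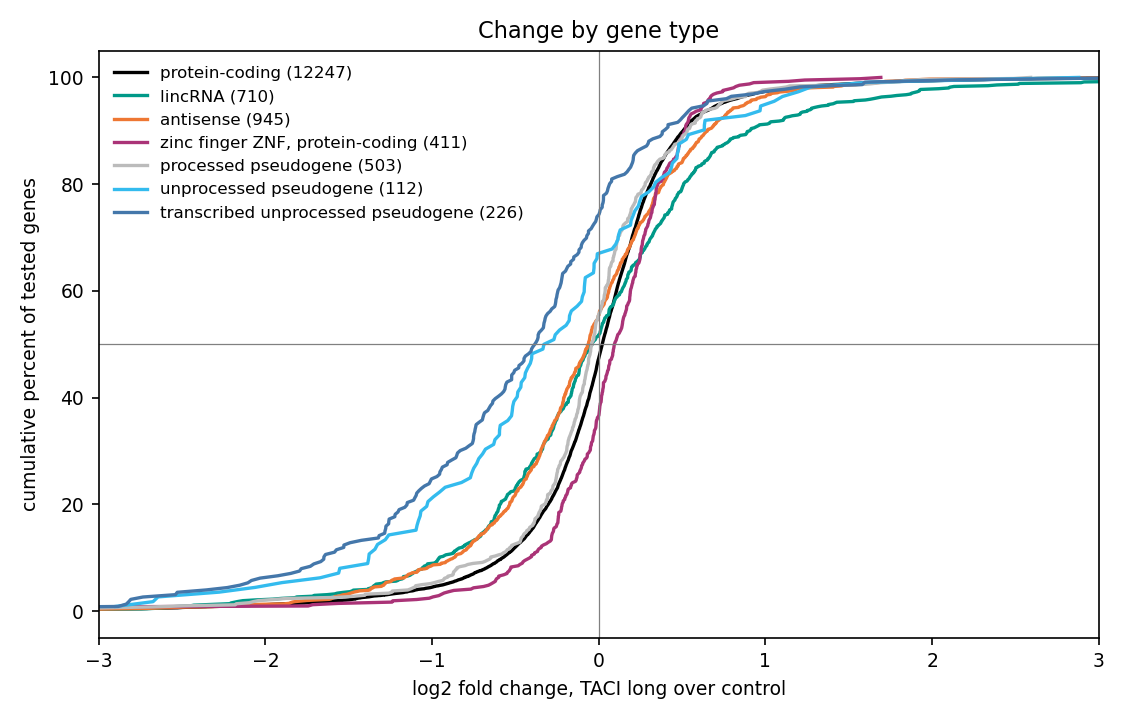
Cumulative percent of tested genes (vertical axis) at or below each log2 fold change (horizontal axis, shown from -3 to 3) by gene type, with the number of genes in parentheses; zinc finger genes are a subset of the protein-coding ones. At the medians, transcribed unprocessed and unprocessed pseudogenes (-0.38 and -0.30) lie to the left of protein-coding genes (0.02), processed pseudogenes (-0.04) lie close to them, and zinc finger genes (0.10) lie to the right.

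Large machines of the cell moved little. Of 39 proteasome genes 8 rose and 13 fell, all between -0.22 and 0.29 on the log2 scale. Cytosolic ribosomal protein genes (80 tested) had 19 higher and 20 lower, from -0.33 to 0.50, and mitochondrial ribosomal protein genes (78 tested) 22 higher and 23 lower, from -0.38 to 0.66. Nuclear genes of oxidative phosphorylation had 33 of 77 members higher (42.9%) and 16 lower (20.8%), from -0.43 to 0.35. NDUFB3 and NDUFA6, subunits of complex I, rose 1.27-fold and 1.22-fold, while its flavoprotein subunit gene NDUFV1 fell 1.35-fold. Such small changes depended on the libraries fitted. Over all 9 libraries, 13 mitochondrial and 11 cytosolic ribosomal genes were higher, 11 cytosolic ones lower and 10 oxidative phosphorylation genes lower. Without control replicate 3, 14 mitochondrial and 12 cytosolic ribosomal genes were higher. Without control replicate 1 or without TACI long replicate 2, 13 cytosolic ribosomal and 10 oxidative phosphorylation genes were lower. The share of counts from mitochondrially encoded genes was 2.38 to 3.08% in controls and 3.26 to 3.80% in TACI long.

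Some changes lay next to each other on a chromosome. Medians were taken over 12040 windows of 9 neighbouring tested protein-coding genes, which share members and are given without a test. The 5th and 95th percentiles of these medians were -0.28 and 0.28, and 42 windows had a median at least 1.5-fold lower and 22 one at least 1.5-fold higher. The lowest median, -1.28, belonged to a stretch of C-type lectin genes (hg38 chromosome 12, 9664969 to 10223130). There CLEC2D, a ligand of an NK cell receptor, fell 2.06-fold, CLECL1 2.43-fold, CLEC2B 6.85-fold, and CD69 and GABARAPL1 fell as given above; 3 of 9 genes were not called. On chromosome 19 (6463777 to 6751526, median -1.21), TNFSF9 and CD70 lie beside TUBB4A, a tubulin gene that fell 9.42-fold, and TRIP10, which 2.32-fold; 7 of 9 genes were lower.

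The highest window median, 1.29, lay on chromosome 14 (94081282 to 95319906). It holds serpin genes, of which SERPINA9, a protease inhibitor of germinal centre B cells, stood at 133, 129.6 and 126 CPM in the controls and 419.8, 412 and 426 CPM in TACI long. SERPINA11 stood at 4.05, 4.09 and 3.86 CPM in the controls and 13.1, 11.7 and 12.1 CPM in TACI long. Both groups of libraries were clearly apart, with rises of 3.24-fold and 3.08-fold, and SERPINA12 rose 5.16-fold. The actin-linked gene CLMN rose 4.17-fold, while PPP4R4 fell 1.12-fold, a call that was lost in DESeq2 and on leaving out control replicate 2 or any 1 of the TACI long libraries. The SLAM genes on chromosome 1 were not all of 1 direction: SLAMF6 and CD84 at one end rose, and SLAMF1, CD48, SLAMF7 and LY9 fell.

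**Figure D5:**
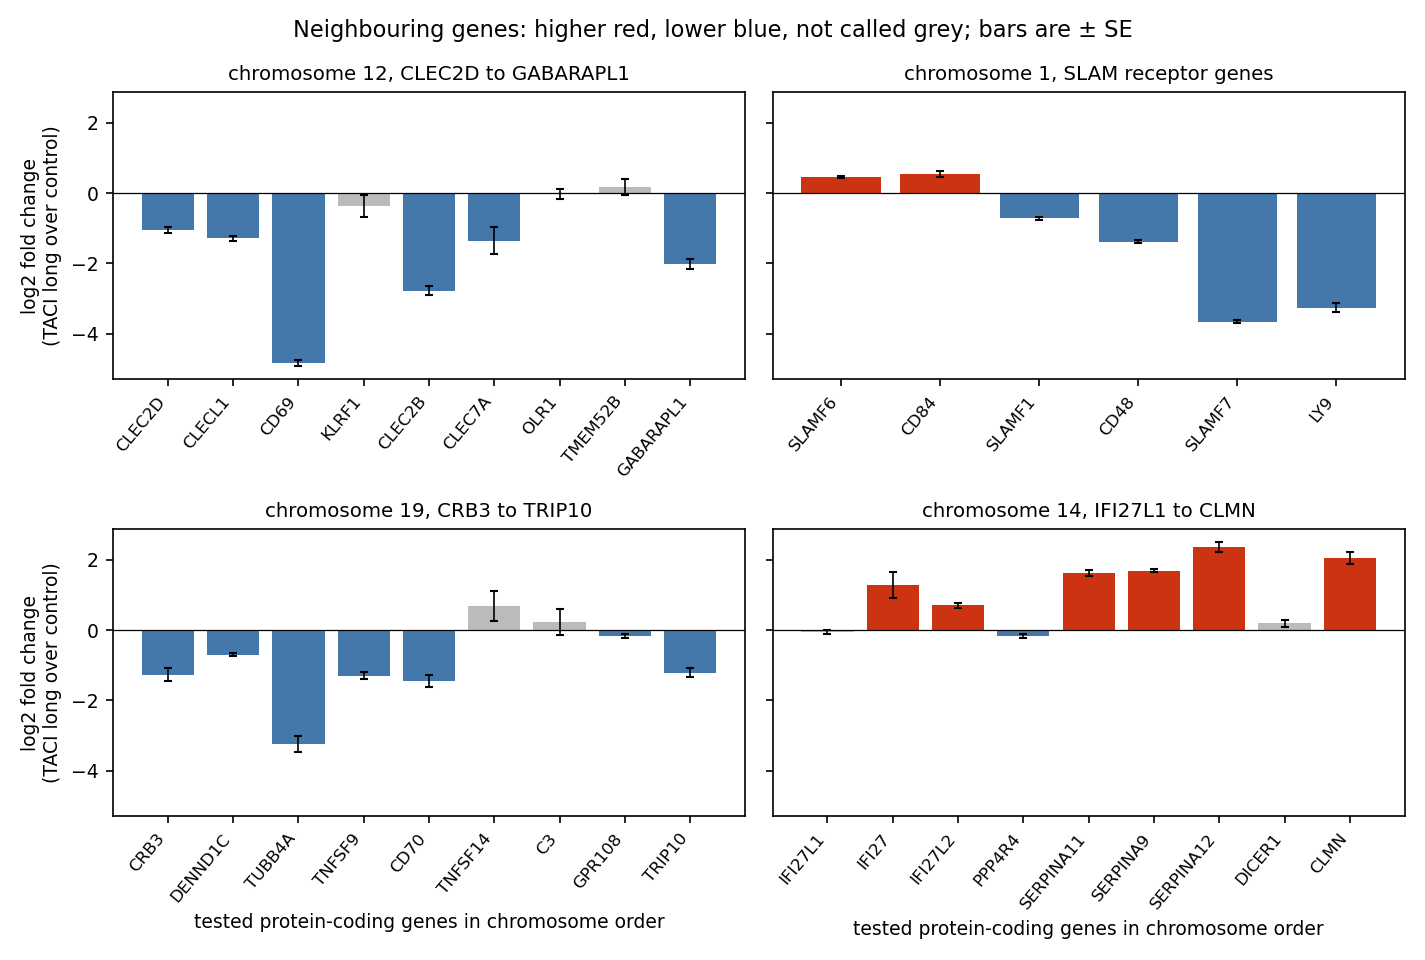
Log2 fold change with its SE for tested protein-coding genes in chromosome order in 4 stretches, with red for higher, blue for lower and grey for not called. Falls run through the chromosome 12 and 19 stretches, rises through most of the chromosome 14 stretch, and the SLAM genes turn from rises to falls.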

How the data were processed

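Each of the 9 libraries has a raw count for 57500 Ensembl genes, as deposited by the authors with no normalization. The submitters' processing notes list build hg38 and the tools STAR 2.4.0h, HTSeq and FastQC; the annotation release, strand setting and filters are not given in the sources used here. Per the labels' protocols, polyadenylated RNA (RNeasy Plus Micro kit) was made into Nextera XT libraries, which keep no strand, so antisense and overlapping genes cannot be told apart. Symbols and gene types are those of GENCODE 29 (56898 genes matched by ID).

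The 3 control and 3 TACI long libraries were fitted alone in edgeR 4.0.16 (R 4.3.3) with its robust quasi-likelihood test, after filterByExpr (minimum count 10, minimum total 15) and TMM scaling. There were 4 residual degrees of freedom and a common biological coefficient of variation of 0.03411. P-values were adjusted by Benjamini-Hochberg over 15559 genes and called under 0.05. SEs are approximate, taken as the size of the log2 fold change over the root of F. Exact intervals are at 95%, and cover counting error only, as reads carry no molecular identifiers.

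The comparison, 35 gene lists and the rule for named genes were chosen with earlier results of these data known. The rule names TNFRSF13B, CD5, EGR1 and HMGCS1, the 20 greatest rises and 20 greatest falls (called, protein-coding, averaging 1 or more in log2 CPM, groups apart), 5 lncRNA genes per direction, the 6 list members of lowest adjusted p in each list, genes near the floor (2 CPM or more in 1 group, 10-fold less in the other) and genes of the extreme windows. Other genes, such as PRDM1, MKI67, SCD5, TNFRSF14, TUBB4A, HERC2P2 and MALAT1, and all genes given as not called, were picked after their values were seen. Alternatives were DESeq2 1.42.0, upper-quartile factors, limma-voom (limma 3.58.1), other filters, other sets of libraries, a replicate block, a minimum change and each library left out. The TACI short libraries entered only in alternatives. Figures were drawn with matplotlib 3.10.9.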

Additional observations from a re-analysis of the deposited data

How the results depend on the processing

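No called gene took the opposite direction under any of the 15 alternatives. The count of genes higher (4631) and lower (4484) became 577 and 958 when a change of at least 1.5-fold was required, and 1535 calls (16.8%) were kept; many calls are of small changes. Leaving out 1 library at a time gave between 4259 and 4746 genes higher and between 4181 and 4363 lower. DESeq2 gave 4117 and 4077, upper-quartile factors 4342 and 4785, limma-voom 4619 and 4478, and a fit over all 9 libraries 4198 and 4319. Apart from the minimum change, 88.9 to 99.3% of calls were kept. With the replicate number as a block, 4873 genes were higher and 4702 lower. Same-numbered libraries did not deviate together (correlations of -0.14, 0.08 and -0.14), and control replicate 1 with TACI long replicate 3 had a correlation of 0.25. These values rest on deviations from means of 3 libraries and cannot decide whether the numbers pair the libraries. Of 245 genes named by the rule, 80 lost their call under the minimum change; CD74, CD3E, LYZ, PPP4R4 and FCGRT lost it under at least 1 other alternative, and none reversed. Genes under about 1 CPM, such as ZNF836, are limited by depth, and their fitted changes moved when 1 TACI long library was left out.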

Other observations

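Rab GTPases, which direct vesicle traffic, had 19 of 48 tested members higher (39.6%), 8 lower (16.7%) and 21 not called, against 29.8% and 28.8% over all genes tested. RAB9A, which returns receptors from late endosomes to the Golgi, stood at 84.8, 80.6 and 81.5 CPM in the controls and 139, 141 and 137 CPM in TACI long. It rose 1.69-fold without overlap between groups, while RAB33A fell 2.31-fold. Among the 48 members, 1 rose by 2-fold or more, RAB32, and 3 fell, RAB4A, RAB33A and RAB39A. The call of RAB32 was lost in DESeq2, with upper-quartile factors, over all 9 libraries and in several fits that omit 1 library. That of RAB39A was lost without control replicate 2.

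Ion channel and connexin genes had 19 of 78 tested members higher and 24 lower. PIEZO1, a channel opened by mechanical force, stood at 97.3, 102 and 106 CPM in the controls and 34.8, 39.5 and 37.4 CPM in TACI long. It fell 2.73-fold, and its exons overlap those of CTU2, so unstranded reads can be shared. KCNH3, a potassium channel gene, rose at a level near the floor, from 26 to 142 counts over the group (ratio 5.70, 95% exact interval 3.73 to 9.02).

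EPCAM, an epithelial adhesion gene listed as a marker of other cell types, stood at 95.6, 96.4 and 95.1 CPM in the controls and 117, 114 and 113 CPM in TACI long, a rise of 1.2-fold. The keratin gene KRT18 had 0 counts in all 6 libraries, and KRT8, KRT19 and CDH1 had at most 3 in each. DCN, a proteoglycan gene of fibroblasts, fell 6.56-fold, from 2.87 ± 0.144 to 0.433 ± 0.0982 CPM (mean ± SD, n = 3 per group). The other fibroblast markers tested, COL1A1 and COL1A2, were not called and overlapped between groups.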
